A study of Mus musculus with 6 samples.

Results

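Transcripts of activity-induced immediate early genes were measured by RNA sequencing in islets of Langerhans, the endocrine cell clusters of the mouse pancreas. The set holds 10 genes chosen by name (Fos, Fosb, Jun, Junb, Egr1, Npas4, Nr4a1, Nr4a2, Ier2 and Arc), and all 10 were found among the 40840 rows of the count table and passed the filter on low counts, which kept 16240 genes. The 6 libraries were 3 knockout (KO) and 3 wild-type (WT) libraries of pancreatic islets, all on the C57BL/6J strain background. The genotype labels read only KO and WT, and the series title gives IGF2R in beta cells as the subject. Sex, age, treatment, culture, the way the gene was removed and the cells it was removed from are not in the labels. Whether each library came from its own animal is not stated either. The p-values set the difference between genotypes against the spread of these libraries, and that spread may be technical.

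Immediate early genes are transcribed within minutes of a stimulus, without new protein synthesis, when calcium, cAMP or growth factor signals reach transcription factors already bound at their promoters, such as CREB and SRF. In beta cells, glucose closes potassium channels and opens calcium channels, and incretin hormones raise cAMP, and both routes lead to CREB. Most of the genes encode short-lived transcription factors, and their transcripts also respond to handling of tissue during isolation.

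The promoters of the 5 genes that varied most between libraries, picked after their values were seen, are shown because all of them carry the core of the cAMP response element, the site that CREB binds. RefSeq windows on GRCm38.p6, from 250 bases before to 50 bases after the start of the gene, matched 7 of the 10 genes (Fos, Fosb, Jun, Junb, Npas4, Nr4a1 and Nr4a2). Capitals mark TGACG, the core of the element, or CGTCA, the same core on the other strand.
Nr4a1 promoter (chr15:101266596-101266895, plus strand): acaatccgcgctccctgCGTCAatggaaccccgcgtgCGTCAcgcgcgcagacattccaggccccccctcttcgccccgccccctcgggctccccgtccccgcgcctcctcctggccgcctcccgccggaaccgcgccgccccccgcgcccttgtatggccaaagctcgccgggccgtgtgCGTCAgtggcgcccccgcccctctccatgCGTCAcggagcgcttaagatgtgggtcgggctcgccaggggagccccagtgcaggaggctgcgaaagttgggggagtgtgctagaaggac
Nr4a2 promoter (chr2:57123954-57124253, minus strand): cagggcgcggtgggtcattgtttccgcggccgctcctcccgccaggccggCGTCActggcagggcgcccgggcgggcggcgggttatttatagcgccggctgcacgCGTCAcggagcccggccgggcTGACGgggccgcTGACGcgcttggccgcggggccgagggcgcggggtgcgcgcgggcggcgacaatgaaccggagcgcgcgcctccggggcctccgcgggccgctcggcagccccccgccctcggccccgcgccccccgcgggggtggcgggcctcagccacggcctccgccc
Fos promoter (chr12:85473640-85473939, plus strand): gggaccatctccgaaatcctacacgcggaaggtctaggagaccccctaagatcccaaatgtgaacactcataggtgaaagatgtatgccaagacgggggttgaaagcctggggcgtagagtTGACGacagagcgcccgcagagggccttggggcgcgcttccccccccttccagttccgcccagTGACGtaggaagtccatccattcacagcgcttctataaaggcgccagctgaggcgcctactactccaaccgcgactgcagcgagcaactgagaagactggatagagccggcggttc
Fosb promoter (chr7:19309996-19310295, minus strand): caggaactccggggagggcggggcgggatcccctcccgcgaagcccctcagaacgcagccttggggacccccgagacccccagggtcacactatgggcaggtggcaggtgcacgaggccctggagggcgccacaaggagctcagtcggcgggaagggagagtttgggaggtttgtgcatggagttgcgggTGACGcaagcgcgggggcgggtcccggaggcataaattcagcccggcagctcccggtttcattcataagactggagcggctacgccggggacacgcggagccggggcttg
Npas4 promoter (chr19:4989922-4990221, minus strand): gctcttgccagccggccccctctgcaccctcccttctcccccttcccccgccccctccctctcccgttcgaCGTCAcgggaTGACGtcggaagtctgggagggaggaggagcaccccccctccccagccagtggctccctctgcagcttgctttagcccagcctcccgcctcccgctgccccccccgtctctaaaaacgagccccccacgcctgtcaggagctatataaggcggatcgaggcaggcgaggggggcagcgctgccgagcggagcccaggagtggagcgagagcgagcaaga

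The core was in the windows of 6 of the 7 genes, all but Jun, and in 20.8% of 32817 windows of the same length over all genes. Nr4a1 and Nr4a2 had 4 copies each, a number reached or passed in 0.232% of windows. Start sites are those of RefSeq. For Nr4a1 and Npas4 the whole window, with the RefSeq start, lies inside the span of the gene in the annotation used for exon lengths. In Nr4a1 the copies nearest the start lay from -69 to -65 and from -40 to -36, counted from the start site. In Fos the copy from -66 to -62 was the nearest, and in Fosb the only copy lay from -60 to -56. The full palindrome TGACGTCA, which contains the core, was in 0 of the 7 windows and in 1.79% of all. The site of the EGR factors, GCGGGGGCG, was in the windows of Fosb and Nr4a1 and in 2.91% of all. The CArG box of SRF, the AP-1 site TGANTCA and the NR4A site AAAGGTCA were in 0 of the 7, and in 1.63%, 7.81% and 1.51% of all windows. A match of letters is not a measured binding site, and these windows do not cover more distant elements.

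Before the comparison of genotypes, the targeted transcript was examined. Igf2r, which encodes the cation-independent mannose 6-phosphate receptor, stood at 49.3, 48.1 and 48.4 CPM (counts scaled to a common library size with TMM factors) in KO libraries 1 to 3, against 94.98, 128 and 115 CPM in WT libraries 1 to 3. It fell in KO, with a log2 fold change of -1.21 (SE 0.0946, edgeR quasi-likelihood adjusted p = 0.00261). Leaving out KO library 1 or KO library 2 ended this call (edgeR adjusted p = 0.130 and 0.192) with log2 fold changes of -1.22 and -1.20, and so did an acinar covariate (edgeR adjusted p = 0.287) with one of -1.25, so the size of the difference was close to the main value in each. Which exons were removed is not in the labels. Total counts ran from 16689319 to 18956235 in KO libraries and from 16943764 to 18757633 in WT libraries. The libraries differed in acinar transcripts, from the enzyme-secreting cells around islets, which took 0.0990% to 0.276% of the counts of KO libraries. In WT they took 1.78% of library 1, 1.87% of library 2 and 0.306% of library 3. Of the islet cell markers, all 10 of the beta cell list, all 8 of the alpha cell list and all 5 of the delta cell list had counts in every library. Of the acinar list, 25 of 28 had counts in every library and Amy2a5 was listed at 0 throughout.

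None of the immediate early genes passed the test between KO and WT islets. Of the 10, edgeR called 0 higher and 0 lower at an adjusted p under 0.05, where 0.0123% of all tested genes were called. The values were higher in KO for 6 and lower for 4, and their median log2 fold change was 0.032, beside a median of 5.34e-05 over all 16240 tested genes. At an unadjusted p under 0.05 there were 2 of 10, Npas4 with higher and Jun with lower values, beside 11% of all tested genes. Groups were apart, with no overlap of their values, for 1 of 10 genes, beside 15.7% of all tested genes. That gene was Npas4, higher in KO, where 8.02% of all tested genes were apart in this direction, and 0 of 10 were apart with lower values in KO, beside 7.69%. DESeq2 and limma-voom also called 0 of the 10, and DESeq2 gave an adjusted p to 4 of them. Small changes may go uncalled, since in simulated data edgeR called 54% of genes changed 1.5 times and 32% of those changed 1.2 times. The 200 changed genes of the simulation were drawn from all tested genes, each with its own spread. The spread between replicates fitted by edgeR, as a coefficient of variation, was 0.0796 in common over tested genes. Among the 10 it ran from 0.061 for Junb to 0.233 for Nr4a1. The simulated shares are therefore not those of the 10 genes, and none was measured for the most variable of them.

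**Figure D1:**
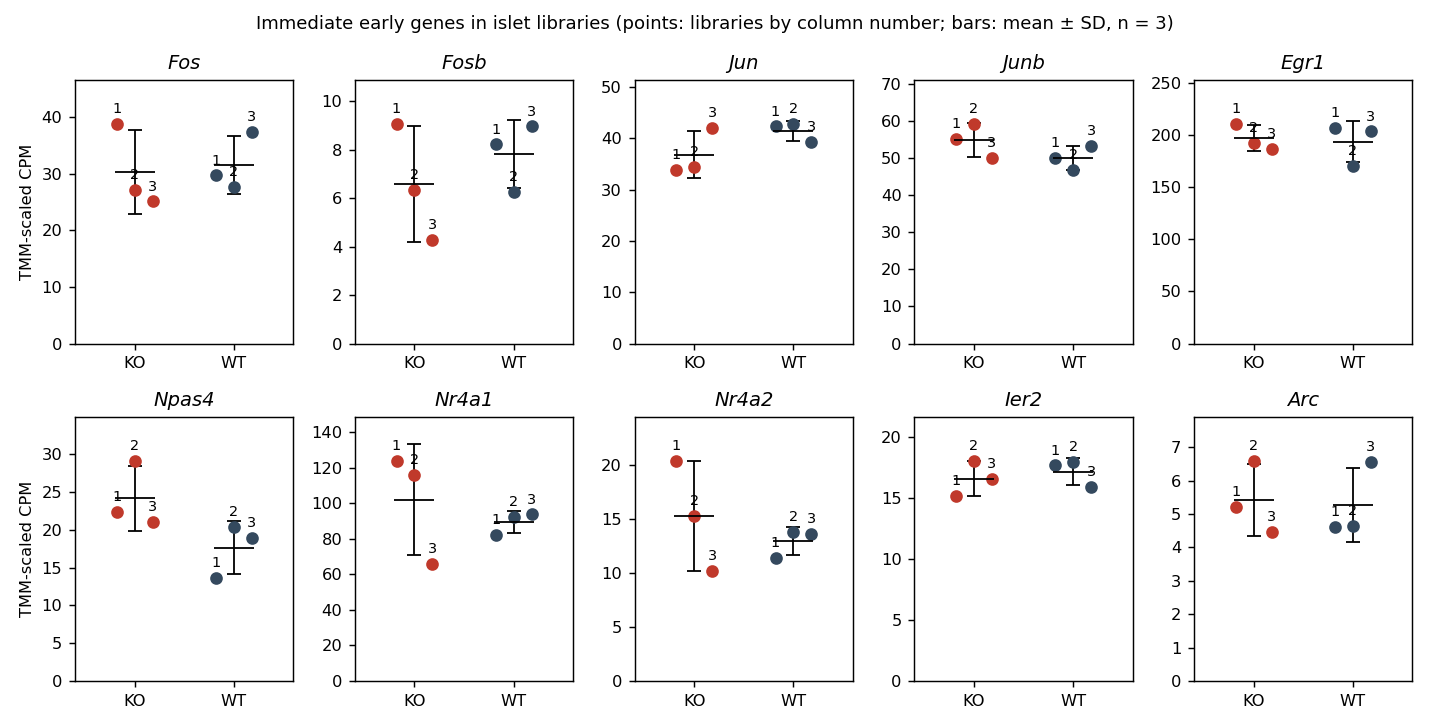
TMM-scaled CPM (vertical axis, from 0) of the 10 immediate early genes in 3 KO and 3 WT libraries. Points are libraries numbered by their columns, and bars are the mean ± SD. Npas4 is the only gene whose KO and WT points do not overlap, and Nr4a1 and Nr4a2 spread wider in KO than in WT.

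Fos (chr12:85473890-85477273, plus strand) encodes the founding partner of JUN proteins in the AP-1 transcription factor. Fos stood at 38.9, 27.1 and 25.1 CPM in KO libraries 1 to 3, against 29.7, 27.7 and 37.5 CPM in WT libraries 1 to 3. KO library 1 and WT library 3 were high and the other 4 lay close together, so the groups overlapped. KO over WT, the log2 fold change was -0.055 (SE 0.222, edgeR adjusted p = 0.949), and with single libraries left out it ran from -0.28 without KO library 1 to 0.087 without WT library 3.

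Fosb (chr7:19302696-19310051, minus strand), a second FOS protein known in brain for a stable splice form, had a similar pattern at a lower level. Its values were 9.08, 6.35 and 4.30 CPM in KO libraries 1 to 3, against 8.22, 6.25 and 8.97 CPM in WT libraries 1 to 3. KO library 1 was again the highest and KO library 3 the lowest of all, inside which the WT values lay. The log2 fold change, -0.24 with an SE of 0.265, had an edgeR adjusted p of 0.777. It was -0.55 without KO library 1, -0.38 without WT library 2, -0.13 without WT library 3 and -0.017 without KO library 3.

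Jun (chr4:95049034-95052222, minus strand), the gene of the main DNA-binding partner of FOS, ran the other way across libraries. Jun stood at 33.8, 34.4 and 42.0 CPM in KO libraries 1 to 3, against 42.3, 42.8 and 39.2 CPM in WT libraries 1 to 3. KO libraries 1 and 2 were the lowest of the 6, while KO library 3 lay within the WT values. On the log2 scale the difference was -0.17 (95% interval from -0.34 to -0.01, SE 0.0790), with an edgeR adjusted p of 0.435. Without KO library 3 it was -0.28, and without KO library 1, where it was nearest to 0, it was -0.12.

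Junb (chr8:84974484-84978718, minus strand) encodes a JUN protein with weaker activating capacity than JUN. Junb stood at 55.2, 59.2 and 49.9 CPM in KO libraries 1 to 3, against 50.1, 46.6 and 53.2 CPM in WT libraries 1 to 3. KO libraries 1 and 2 were above every WT library and KO library 3 was not. The difference was 0.13 on the log2 scale, with an SE of 0.0701 and an edgeR adjusted p of 0.497. It was 0.073 without KO library 2 and 0.086 without WT library 2. Annotated exons of Junb share 173 bases with Prdx2 on the opposite strand, and those of Jun share 232 bases with Junos. The strand setting of the counting is not given in the sources used here, so reads of these stretches may belong to either gene.

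Egr1 encodes a zinc finger factor induced by glucose in beta cells, and it had the most counts of the 10 genes. Its values were 211, 193 and 187 CPM in KO libraries 1 to 3, against 207, 171 and 204 CPM in WT libraries 1 to 3. The groups overlapped, and the highest library was 1.24 times the lowest. Its log2 fold change was 0.023, with a 95% interval from -0.13 to 0.17 (SE 0.0718, edgeR adjusted p = 0.934). With single libraries left out it ran from -0.059 without WT library 2 to 0.074 without WT library 1.

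Nr4a1 (chr15:101254269-101274795, plus strand) and Nr4a2 (chr2:57106830-57124003, minus strand) encode orphan nuclear receptors that bind DNA without a known physiological ligand and are induced by calcium and cAMP. Nr4a1 stood at 124, 116 and 66.0 CPM in KO libraries 1 to 3, against 82.1, 92.2 and 93.7 CPM in WT libraries 1 to 3. KO libraries 1 and 2 were above and KO library 3 was below all WT libraries, and the SD was 31.3 CPM in KO and 6.31 CPM in WT (n = 3 each). The log2 fold change was 0.19 (95% interval from -0.56 to 0.95, SE 0.276, edgeR adjusted p = 0.848). Without KO library 3, edgeR called Nr4a1 higher in KO (log2 fold change 0.42, adjusted p = 0.00557), so that 1 library decided the call, and without KO library 1 the log2 fold change was 0.028.

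Nr4a2 followed the same order in KO. Its values were 20.3, 15.2 and 10.2 CPM in KO libraries 1 to 3, against 11.4, 13.8 and 13.6 CPM in WT libraries 1 to 3. KO libraries 1 and 2 were again above, and KO library 3 below, every WT library. The log2 fold change was 0.25 (SE 0.266, edgeR adjusted p = 0.783), and without KO library 3 it was 0.47 (edgeR adjusted p = 0.185). Without KO library 1 the sign turned, to -0.021.

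Npas4 (chr19:4984355-4990316, minus strand) encodes a basic helix-loop-helix factor that is induced by membrane depolarization and calcium entry rather than by growth factors. Npas4 stood at 22.3, 29.1 and 21.01 CPM in KO libraries 1 to 3, against 13.6, 20.4 and 18.9 CPM in WT libraries 1 to 3. All KO values were above all WT values, and KO library 3 lay closest to WT library 2. The log2 fold change was 0.45 (95% interval from 0.03 to 0.88, SE 0.180), the largest of the 10, with an edgeR adjusted p of 0.435. Without a filter on low counts edgeR called it (adjusted p = 0.000696, log2 fold change 0.46) as 1 of 272 genes, where the filtered fit called 2. Without WT library 1, the lowest, the log2 fold change was 0.30, and without KO library 2, the highest, it was also 0.30.

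Ier2 (chr8:84661331-84662852, minus strand), a small nuclear protein gene, and Arc (chr15:74669083-74672570, minus strand), whose protein acts at synapses in neurons, had means close to each other in the genotypes. Ier2 stood at 15.2, 18.03 and 16.5 CPM in KO libraries 1 to 3, against 17.7, 17.9 and 15.9 CPM in WT libraries 1 to 3. Arc stood at 5.20, 6.58 and 4.47 CPM in KO libraries 1 to 3, against 4.62, 4.65 and 6.55 CPM in WT libraries 1 to 3. Both genes overlapped between the groups, with log2 fold changes of -0.050 for Ier2 and 0.040 for Arc (SE 0.0950 and 0.174, edgeR adjusted p = 0.883 and 0.951). With single libraries left out, both signs occurred, from -0.11 to 0.011 for Ier2 and from -0.12 to 0.23 for Arc. Arc had the lowest mean CPM of the 10, with 76 to 119 counts in a library. The lowest single count was 73, that of Fosb in KO library 3.

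**Figure D2:**
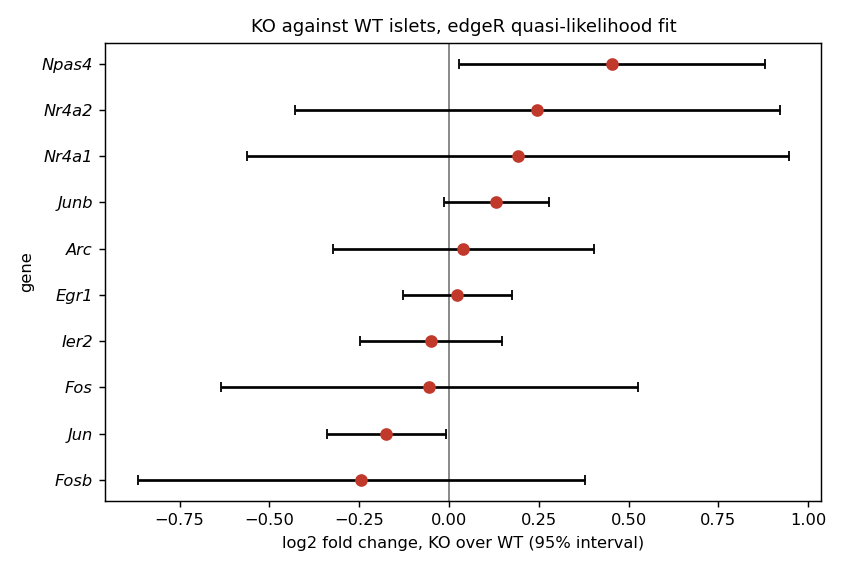
Log2 fold change of KO over WT (horizontal axis) for each of the 10 genes from the edgeR quasi-likelihood fit, with 95% intervals that are not adjusted for the number of genes. The interval of Npas4 lies above 0 and that of Jun below 0, and the intervals of Nr4a1, Nr4a2, Fosb and Fos are the widest.

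Several of the genes had a wide spread between libraries for their level. The ratio of the highest to the lowest of the 6 libraries was 2.13 for Npas4, 2.11 for Fosb, 1.997 for Nr4a2, 1.87 for Nr4a1 and 1.55 for Fos. Each was compared with the 500 tested genes nearest in mean log2 CPM, as a description. The ratio of Nr4a1 was above that of 99.6% of its neighbours, whose median was 1.15. For Npas4 and Nr4a2 the share was 99.4% each, for Fosb 97.4% and for Fos 97.0%. Junb (89.4%), Egr1 (82.6%) and Jun (82.2%) were nearer the middle, followed by Arc (65.2%) and Ier2 (31.2%). In all, 5 of 10 genes had a ratio of at least 1.5, beside 24.9% of all tested genes.

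**Figure D3:**
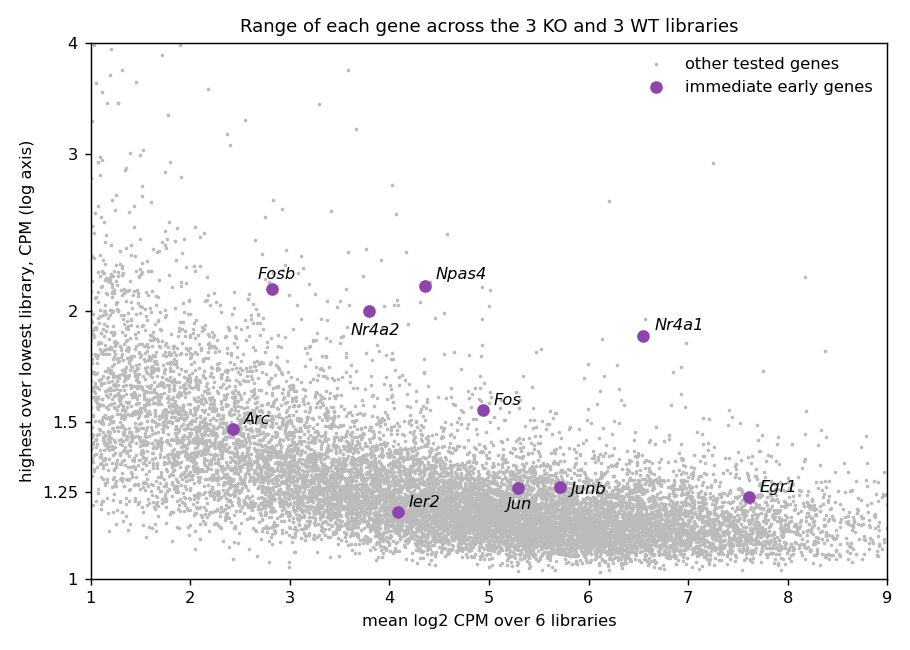
Ratio of the highest to the lowest of the 6 libraries (vertical log axis) against mean log2 CPM (horizontal axis) for tested genes in the plotted range, with the 10 immediate early genes in colour. Npas4, Fosb, Nr4a2, Nr4a1 and Fos lie at the upper edge of genes of their level, and Ier2 lies inside the cloud.

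For Fosb, Nr4a1 and Nr4a2 the spread was wider among KO than among WT libraries, and for Fos and Npas4 it was wide in both. Within KO the coefficient of variation was 36.5% for Fosb, 33.3% for Nr4a2, 30.7% for Nr4a1 and 24.4% for Fos, against 17.9%, 10.1%, 7.06% and 16.3% in WT. The difference in spread between genotypes was not tested. Npas4 had 17.95% in KO and 20.1% in WT. Set beside the same 500 neighbours, the KO value was above 99.6% of genes for Fos and 98% for Npas4, and the WT value above 97.6% for Fos and 98.4% for Npas4. For Nr4a1 the shares were 100% in KO and 76.8% in WT, for Nr4a2 99.8% in KO and 68.2% in WT, and for Fosb 99.4% in KO and 86.2% in WT. Jun, at a smaller range, was also wider in KO (12.5%, above 97.4% of its neighbours) than in WT (4.70%, above 44.6%). KO library 1 held the highest value of 5 of the 10 genes, beside 12.3% of all tested genes. KO library 3 held the lowest value of 5 of 10 (Fos, Fosb, Nr4a1, Nr4a2 and Arc), beside 16.6% of all tested genes. Of the lists described below, it was also lowest for 7 of 15 SRF and MEF2 genes and 6 of 15 CREB and cAMP targets. It was lowest for 8 of 33 kinase and calcium genes, 6 of 50 further primary response genes and 0 of 17 heat shock and stress genes. KO libraries 1 and 3 were singled out after their values were seen. Summed over the 10 genes, the level was 535, 505 and 427 CPM in KO libraries 1 to 3, against 467, 443 and 491 CPM in WT libraries 1 to 3.

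**Figure D4:**
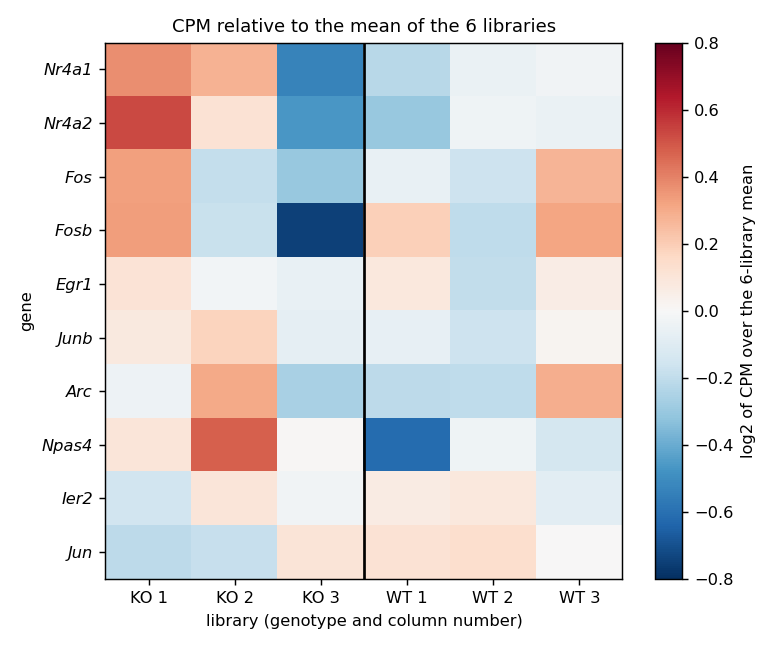
Log2 of each library's CPM over the mean of the 6 libraries (colour) for the 10 genes (rows), with KO libraries left of WT libraries. Nr4a1, Nr4a2, Fos and Fosb are high in KO library 1 and low in KO library 3, and Jun is low in KO libraries 1 and 2.

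The genes did not all vary together. Of the 45 pairs, 19 had a negative Pearson correlation of log2 CPM across the 6 libraries, and 2 were above 0.8. These were the paralog pairs Nr4a1 with Nr4a2 (r = 0.94) and Fos with Fosb (r = 0.87). Jun ran against most of the others, with r of -0.91 to Junb, -0.86 to Nr4a1 and -0.83 to Nr4a2, and its one positive r was 0.38 to Ier2. Npas4 had r of -0.14 to Fos and 0.51 to Nr4a1. These are descriptions over 6 libraries in which all genes share the same library and depth, and in both pairs above 0.8 each gene was highest in KO library 1 and lowest in KO library 3. Per kilobase, Nr4a1 stood 7.03 to 8.81 times above Nr4a2 in KO and 7.75 to 8.32 times in WT.

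The genes most like the set were sought among 12506 other genes with a mean log2 CPM of at least 1, by the Pearson correlation with the mean scaled profile of the 10. The 8 highest were Dnajc14 (0.99), Rhobtb1 (0.99), Sri (0.98), Slc23a3 (0.96), Ero1b (0.95), Iffo1 (0.95), Pnrc1 (0.95) and Gon7 (0.95), over 6 libraries. None of them is a gene of the lists described here. Their own range was small, with a highest to lowest ratio from 1.06 for Iffo1 to 1.27 for Gon7, against a median of 1.51 for the 10 genes. They were the highest of all candidates by construction.

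Levels were compared between genes as CPM per kilobase of annotated exon. In KO and WT libraries alike, Egr1 was the most abundant, at 43.9 ± 2.77 in KO and 43.2 ± 4.46 in WT (SD, n = 3 each). Nr4a1 followed at 29.0 ± 8.93 in KO and 25.5 ± 1.80 in WT, and Junb at 23.8 ± 2.02 in KO and 21.7 ± 1.42 in WT, and these neighbours did not differ beyond their spread in KO. Fos, Jun and Ier2 lay together, with means over the 6 libraries of 13.2, 12.3 and 11.1, and overlapped. Below them came Npas4 (5.05), Nr4a2 (3.47), Arc (1.75) and Fosb (1.15). The order of Arc and Fosb rests on the annotated exon length. In mean CPM, Fosb (6.58 in KO and 7.82 in WT) was above Arc (5.42 in KO and 5.27 in WT).

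The families differed in how evenly their members were expressed. Among the early growth response factors, Egr1 stood far above Egr2 (0.170 in KO and 0.189 in WT per kilobase) and Egr3 (0.147 in KO and 0.137 in WT), and Egr4 had 0 to 4 counts in a library. Among the orphan receptors, Nr4a3, the third paralog, stood at 0.163 in KO and 0.205 in WT per kilobase, below Nr4a2 in every library. Of the FOS genes, Fosl2 stood at 2.09 in KO and 2.12 in WT and Fosl1 had 0 or 1 count in a library. Jund, the JUN gene that is expressed without a stimulus in many tissues, was the most abundant of the 3 JUN genes, at 104 ± 6.82 in KO and 92.7 ± 7.06 in WT per kilobase (SD, n = 3 each).

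**Figure D5:**
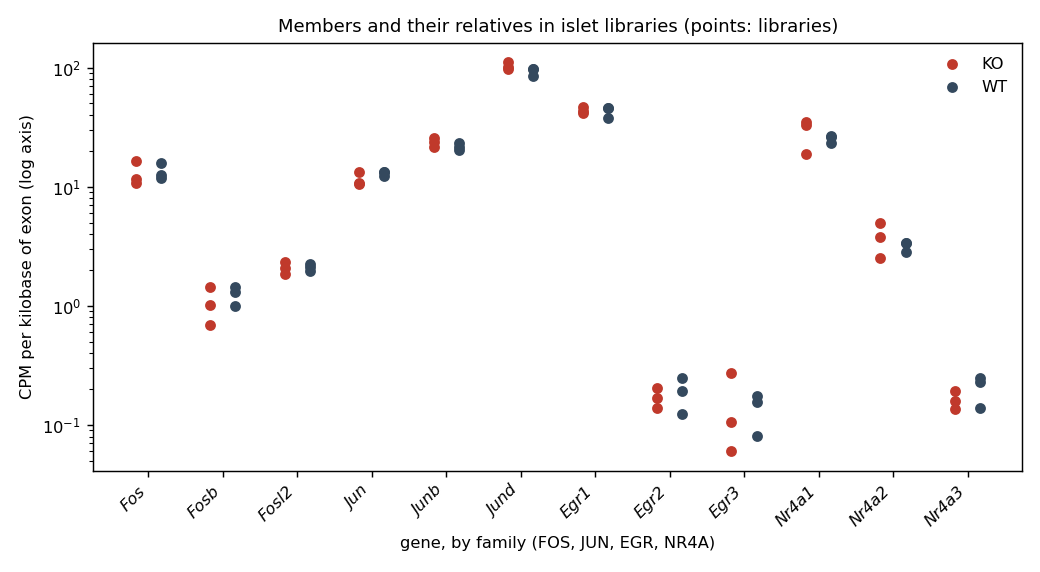
CPM per kilobase of exon (vertical log axis) for members of the FOS, JUN, EGR and NR4A families that passed the filter, with KO points left of WT points and 1 point for each library. Jund, Egr1, Nr4a1 and Fos have the highest mean of their families in these islets.

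The wider primary response was measured with a list of 54 further immediate early genes, of which 50 were tested. edgeR called 0 of them, values were higher in KO for 27 and lower for 23, and the median was 0.019 on the log2 scale. At an unadjusted p under 0.05 there were 9 of 50, beside 11% of all tested genes. Jund stood at 173 ± 11.4 CPM in KO and 155 ± 11.8 CPM in WT (SD, n = 3 each), a log2 fold change of 0.16 (edgeR adjusted p = 0.392). Spry4, a feedback inhibitor of receptor tyrosine kinase signalling, had a log2 fold change of 0.32 (22.5 CPM in KO and 18.1 CPM in WT, edgeR adjusted p = 0.281, called without the low-count filter at 0.0405) and Ier5 one of 0.22 (edgeR adjusted p = 0.343). Btg2, an antiproliferative gene, stood at 125 CPM in KO and 122 CPM in WT.

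Targets of CREB and cAMP gave no call by edgeR either. Values were above WT for 7 of 15 and below for 8, with a median of -0.019 on the log2 scale. An unadjusted edgeR p under 0.05 was reached by 2 of the 15, beside 11% of all tested genes. Scg2, the secretogranin II gene of secretory granules, stood at 6335 ± 474 CPM in KO and 6609 ± 333 CPM in WT (SD, n = 3 each). Pcsk1, the prohormone convertase that cleaves proinsulin, stood at 398 CPM in KO and 394 CPM in WT. Rasd1, a small GTPase gene, had the smallest p of the list, with 35.3 ± 3.38 CPM in KO and 26.0 ± 3.02 CPM in WT (SD, n = 3 each), a log2 fold change of 0.44 and an edgeR adjusted p of 0.192. Without WT library 3 or without KO library 3, edgeR called Rasd1 (adjusted p = 0.00565 and 0.0138), as it did without the low-count filter. The clock gene Per1 had a log2 fold change of -0.15 (edgeR adjusted p = 0.414).

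The kinases and calcium sensors upstream of these promoters gave no call. Of 33 tested, 14 were above and 19 below WT, the median was -0.0090 on the log2 scale, and edgeR called 0. The unadjusted edgeR p was under 0.05 for 2 of the 33, beside 11% of all tested genes. Creb1, the gene of CREB itself, stood at 75.6 ± 2.68 CPM in KO and 82.7 ± 1.16 CPM in WT (SD, n = 3 each; log2 fold change -0.13, edgeR adjusted p = 0.406). Map2k2, a kinase of the ERK pathway, stood at 74.8 ± 3.19 CPM in KO and 66.0 ± 1.71 CPM in WT (log2 fold change 0.18, edgeR adjusted p = 0.281). The protein kinase A subunits Prkacb and Prkar1a, at 584 and 497 CPM in KO and 552 and 506 CPM in WT, had log2 fold changes of 0.082 and -0.025.

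SRF, MEF2 and their partners had 5 of 15 above and 10 below WT, a median of -0.033 on the log2 scale and 0 calls by edgeR. In this list 3 of 15 had an unadjusted edgeR p under 0.05, beside 11% of all tested genes. Mrtfb, a coactivator of SRF, stood at 68.7 ± 3.86 CPM in KO and 82.5 ± 6.62 CPM in WT (SD, n = 3 each), a log2 fold change of -0.26 (edgeR adjusted p = 0.211), and without WT library 3, or without the low-count filter, edgeR called it (adjusted p = 0.0380 and 0.00378). Elk4, another SRF partner, had a log2 fold change of -0.35 (8.09 CPM in KO and 10.3 CPM in WT, edgeR adjusted p = 0.347). Mef2d stood at 186 CPM in KO and 189 CPM in WT, and the acetyltransferase gene Ep300 at 137 CPM in KO and 153 CPM in WT.

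Heat shock and stress genes also respond to handling. They had 12 of 17 above and 5 below WT, a median of 0.083 on the log2 scale and 0 calls by edgeR. Over all 16240 tested genes, 8122 were above WT. An unadjusted edgeR p under 0.05 was found for 1 of the 17, beside 11% of all tested genes. Atf4, the factor of the integrated stress response, stood at 308 ± 33.4 CPM in KO and 260 ± 1.93 CPM in WT (SD, n = 3 each; log2 fold change 0.24, edgeR adjusted p = 0.270), and DESeq2 called it (adjusted p = 0.0414), as did edgeR without the low-count filter (adjusted p = 0.0270). The metallothionein gene Mt1 stood at 1166 ± 198 CPM in KO and 986 ± 51.9 CPM in WT (log2 fold change 0.24, edgeR adjusted p = 0.559). Without the low-count filter edgeR called Mt1 (adjusted p = 0.0303), and its log2 fold change was 0.37 without KO library 1 and 0.13 without KO library 3. Hsp90ab1 stood at 1221 CPM in KO and 1174 CPM in WT, and the mitochondrial chaperone gene Hspd1 at 96.7 CPM in KO and 104 CPM in WT. Summed over the 17 genes the level was 4383, 4882 and 5105 CPM in KO libraries 1 to 3, against 4322, 4393 and 4667 CPM in WT libraries 1 to 3. Among the named genes of the list, Mt1 was highest in KO library 3, Atf4 in KO library 2, and Hsp90ab1 and Hspd1 in WT library 3. The part of handling in the values of the immediate early genes was not tested.

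In bulk islets, fewer cells of a type and less RNA per cell cannot be told apart. Beta cell markers summed to 156785, 164681 and 143702 CPM in KO libraries 1 to 3, against 131403 to 150942 CPM in WT, so KO library 3 was the lowest of the KO libraries for these too. Taken singly, 7 of the 10 were higher and 3 lower in KO, and 6 did not overlap, beside 15.7% of all tested genes. Ins2, the largest part of the sum, stood at 113052 CPM in KO and 90069 CPM in WT. Ins1 went the other way, at 24342 CPM in KO and 35046 CPM in WT. Alpha cell markers ran from 30515 to 34050 CPM in KO and from 28179 to 36460 CPM in WT, and KO library 3 was the highest of the KO libraries. The 3 markers of pancreatic polypeptide cells summed to 7658 to 8227 CPM in KO and 4716 to 7183 CPM in WT, and the groups did not overlap. Taken singly, 2 of the 3 did not overlap, beside 15.7% of all tested genes. All 12 endothelial markers had counts in every library and summed to 1520 to 1624 CPM in KO and 1410 to 1543 CPM in WT. All 12 macrophage markers did too, with 501 to 530 CPM in KO and 425 to 488 CPM in WT, again without overlap. The largest part of that sum was Cd74, at 261 CPM in KO and 225 CPM in WT. Taken singly, 8 of the 12 were higher and 4 lower in KO, and 4 did not overlap, beside 15.7% of all tested genes. The acinar sums were apart as well, at no more than 2801 CPM in KO and at least 3060 CPM in WT. The 12 stellate and fibroblast markers, all counted in every library, summed to 390 to 411 CPM in KO and 385 to 412 CPM in WT. The part of these cells, and of the acinar share, in the values of the immediate early genes was not tested.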

How the data were processed

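Per the labels' protocols, total RNA of islets went into strand-specific libraries. Per the submitters' processing notes, Trimmomatic 0.39, STAR 2.7.10b, featureCounts 2.0.3 and the mm10 build were used. The sources used here give neither annotation nor strand setting. The authors deposited raw counts per gene, with 1 column per library. KO columns are numbered 1 to 3 and KO titles 4 to 6, so library numbers here are column numbers.

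Low-count genes were removed with filterByExpr (edgeR 4.0.16, at least 10 counts and a total of 15). The quasi-likelihood test of KO against WT used TMM factors and robust estimation, was two-sided, and had p-values adjusted by Benjamini-Hochberg over 16240 genes, with a threshold of 0.05. SE is the size of the log2 fold change over the square root of F. Correlations used log2 CPM with a prior count of 2. Exon lengths and gene positions (GRCm38) came from GENCODE M21 by symbol. The alternatives were DESeq2 1.42.0, limma 3.58.1 (voom), other scalings and filters, an acinar covariate and left-out libraries. The test was checked on simulated data with 200 changed genes drawn from all tested genes. It called 32% of genes changed 1.2 times and 54% of those changed 1.5 times. Larger changes, of 2 and 4 times, were called for 80% and 100% of genes. It also called 17 genes that were left unchanged in the simulation. Replicates of a genotype differed by more than sampling noise (chi-square per degree of freedom of at least 4.51).

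The members and lists were chosen with earlier results of these data known. Named genes are the members, Igf2r, and from each other list up to 4 called genes, or else the 2 with the highest CPM and the 2 with the smallest p, and the 8 genes most like the members.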

Additional observations from a re-analysis of the deposited data

How the results depend on the processing

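The count of immediate early genes called stayed at 0 under all alternatives except without a low-count filter (1, Npas4) and without KO library 3 (1, Nr4a1); with single libraries left out it ran from 0 to 1. The count over all genes, 2 in the main test, was 62 with DESeq2, 1 with limma-voom, 272 without a low-count filter, 1 without robust estimation and 0 with the acinar level as a covariate. With single libraries left out it ran from 0 to 114: 1 without WT library 1, 114 without WT library 3, 0 without KO library 1 or KO library 2, and 24 without KO library 3. The causes were not tested. Of 174 log2 fold changes of the 10 genes under alternatives, 156 kept direction and call, 16 changed sign and 2 became calls. The acinar share did not overlap between genotypes (up to 0.276% in KO, from 0.306% in WT), so the acinar covariate and genotype cannot be separated well. With this covariate the SE rose from 0.0718 to 0.122 for Egr1 and from 0.0946 to 0.161 for Igf2r. With the acinar covariate the log2 fold change was -0.090 for Egr1, 0.17 for Ier2, -0.15 for Arc, 0.035 for Scg2, -0.015 for Pcsk1, -0.075 for Prkacb, 0.13 for Mef2d and -0.042 for Hsp90ab1, all opposite in sign to the main value; with the same sign it was -0.51 for Fosb, 0.29 for Rasd1, -0.025 for Ep300, -0.17 for Mrtfb, -0.034 for Elk4, 0.15 for Mt1 and -0.46 for Fos. Against WT library 3 alone, which assumes that it varies like the KO libraries, it was -0.049 for Egr1, 0.058 for Ier2, -0.27 for Arc, 0.016 for Scg2, -0.028 for Prkacb, 0.052 for Mef2d and -0.034 for Hsp90ab1, and with the same sign -0.44 for Fosb, -0.097 for Jun, 0.040 for Junb, 0.12 for Nr4a1, 0.10 for Jund, 0.18 for Spry4, 0.26 for Rasd1, -0.040 for Ep300, -0.15 for Mrtfb, -0.19 for Elk4 and 0.16 for Mt1. The values of the same sign given here differ from the main ones by over 1.5 times. With single libraries left out the sign varied for Fos (-0.28 to 0.087), Egr1 (-0.059 to 0.074), Nr4a2 (-0.021 to 0.47), Ier2 (-0.11 to 0.011), Arc (-0.12 to 0.23), Btg2 (-0.023 to 0.12), Pcsk1 (-0.073 to 0.085), Prkacb (-0.011 to 0.14), Prkar1a (-0.063 to 0.0052) and Mef2d (-0.069 to 0.0098). Values that kept their sign but differed by over 1.5 times, beside those given in the report, were those of Nr4a1 without KO library 2 (0.090), Nr4a2 (0.16), Jund (0.10) and Ep300 (-0.096) without WT library 1, Per1 without WT library 2 (-0.090) and Atf4 without KO library 2 (0.16). Igf2r was not called by edgeR without KO library 1, without KO library 2 or with the acinar covariate, at log2 fold changes of -1.22, -1.20 and -1.25, against -1.21 in the main test. With a replicate block by column number edgeR called 30 genes and 0 of the 10. Same-numbered columns deviated together with correlations of 0.0731, 0.0970 and 0.0971, each the best for its library, but the labels do not pair them. The ratio of at least 1.5 between libraries held for 5 of the 10 genes, and for 3 without KO library 1 or without KO library 3. Genes at the level of Arc or Fosb rest on 73 to 171 counts in a library.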
